A study of Mus musculus with 4 samples.

Results

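The hair cell (HC) programme shared by the cochlea and the vestibular system was described as the genes that separated both HC libraries from both libraries of epithelial non-sensory cells (ENSCs). For each gene of the table the smaller HC signal was divided by the larger ENSC signal, or the larger HC signal was set against the smaller ENSC signal, so that the pooled ratio states the smallest difference among the 4 pairs of libraries. By this rule 541 of 12814 genes passed a 3-fold excess in HCs, which is 4.22% of the genes tested, and 422 passed a 3-fold deficit, which is 3.29%. Together these 963 genes (7.52%) are the members. The other genes had libraries that overlapped (6200 genes) or a separation of less than 3-fold.

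The cells were taken on postnatal day 1 from *Atoh1/nGFP* mice of C57BL/6 background, in which a nuclear green fluorescent protein driven by *Atoh1* regulatory sequence marks HCs in the cochlea, the organ of hearing, and in the vestibular system, the organ of balance. All 4 populations carried this transgene. HCs were sorted for the fluorescent protein together with CD326, an epithelial surface protein encoded by *Epcam*, and ENSCs for CD326 without the fluorescent protein. Inner ears of several mice were pooled for a sort, and each population had 1 library in the table (cochlear HC, vestibular HC, cochlear ENSC and vestibular ENSC). The table columns named non-HC were taken as the ENSC samples. The organs are not replicates of each other and no population had a second library, so no value below has a replicate error. No test was run, since it would have had to treat the organs as replicates.

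HCs turn the deflection of an apical bundle of actin-filled stereocilia into an electrical signal. Tip links pull on ion channels at the stereocilia tips, and the resulting change of membrane potential opens calcium channels at the ribbon synapse, where vesicles are released onto afferent nerve endings. A true cilium, the kinocilium, stands beside the bundle in development. It is lost from mature cochlear HCs of mammals and kept by vestibular HCs. The surrounding epithelium holds supporting cells and other non-sensory cells, which build the extracellular membranes over the sensory patches and connect to each other through gap and tight junctions.

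Values are quantile-normalized reads per gene, called the signal here, with a floor of 20. Every column had the same sorted values, with a median of 120 and 1412 genes at the floor, so that sequencing depth cannot be read from the table. The signal is not divided by transcript length and is compared between libraries, not between genes. Signals are given with the cochlea before the vestibular system. Low signals up to 24.25 in cochlear HCs, 30.5 in vestibular HCs and 22.75 in cochlear ENSCs could not be ranked and are called tied with the floor. A fold that rests on such a signal is a lower bound and is written "at least". In a bulk sample, fewer cells of a type and less RNA per cell cannot be told apart.

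Most of the higher genes were at or close to the floor in ENSCs. Their median signals were 386 and 422 in HCs and 29 and 20 in ENSCs, and the median pooled fold was 5.75. Both ENSC libraries were tied with the floor for 180 of the 541 genes, and neither was for 237. In HCs 468 of the 541 genes had a signal of at least 100 in both libraries and 104 of at least 1000. The lower genes kept more signal in the population where they were low. Their medians were 51.4 and 44.9 in HCs and 413 and 561 in ENSCs, with a median pooled fold of 4.20, and neither HC library was tied for 245 of the 422 genes.

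The lead of the higher set grew with the fold. At a threshold of 2 the counts were 989 higher and 934 lower genes, at 5 they were 319 and 158, at 10 they were 147 and 41, and at 20 they were 58 and 11. Without any threshold 3306 genes (25.8%) were higher in both HC libraries than in both ENSC libraries and 3308 (25.8%) were lower. Among the higher genes the HC signals of the organs lay within 2-fold of each other for 409 genes (75.6%, against 79.1% of all genes). Another 20 (3.7%) were at least 3-fold higher in cochlear HCs and 33 (6.1%) in vestibular HCs, close to the 4.21% and 5.09% of all genes. Among the lower genes 373 (88.4%) lay within 2-fold in HCs, whereas the ENSC signals did so for 257 (60.9%, against 65.6% of all genes).

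The organs did not contribute equally. The larger ENSC signal, which sets the pooled ratio of a higher gene, was that of the cochlea in 284 of the 344 higher genes in which that signal was not tied with the floor (82.6%), against 50.1% of all genes counted in the same way. The ratio of HCs to ENSCs lay further from 1 in the vestibular system for 364 of the higher genes (67.3%) and 264 of the lower genes (62.6%), against 61.8% of all genes. Once every library was raised to 30.5, the highest tied signal, it did so for 346 (64%) and 269 (63.7%), against 58.8% of all genes. Both counts without ranked ties were added after the data were seen. Taken by itself, the cochlea gave 1075 higher (8.39%) and 1179 lower genes (9.2%), and the vestibular system gave 1762 (13.8%) and 1837 (14.3%). Vestibular ENSCs also stood apart in base composition: across 9776 genes, which are not independent, the deviation of a gene from its mean over the libraries rose with GC content there (Spearman's rho 0.430), while rho lay between -0.258 and -0.176 in the other libraries. After a correction for length and GC content the counts were 623 higher and 384 lower genes, of which 512 and 339 were members without it.

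**Figure D1:**
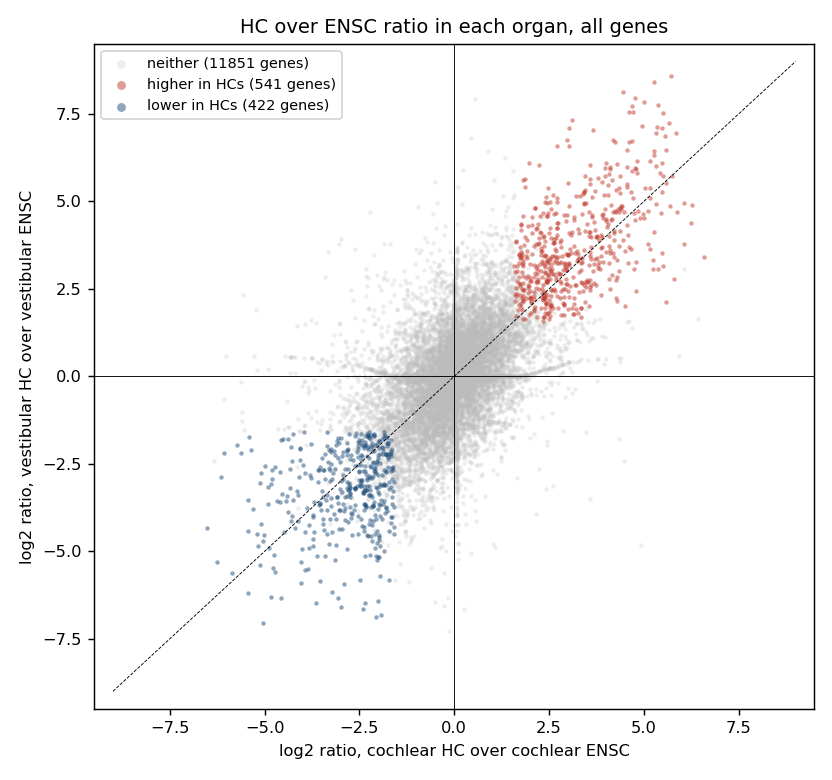
Log2 ratio of HC over ENSC signal in the cochlea (horizontal axis) and in the vestibular system (vertical axis) for each gene, with the 541 higher genes in red, the 422 lower genes in blue and all other genes in grey; the dashed line marks equal ratios. Of the red points 364 (67.3%) lie above the line, and 61.8% of all genes have the ratio further from 1 in the vestibular system.

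The populations were set against marker genes, in lists fixed with earlier results of these data known. Marker counts here and below are read against the shares of all genes, 4.22% higher and 3.29% lower. All 10 listed HC markers were higher in HCs, and their summed signals were 37420 and 32616 in HCs and 1879.5 and 1467 in ENSCs. *Atoh1*, the transcription factor that starts HC differentiation, had 804.5 and 503.5 in HCs against 25.5 and 20 in ENSCs. The sort used a fluorescent protein driven by *Atoh1* regulatory sequence, so this gene is no independent check. *Myo6*, the pointed-end directed motor that all HCs carry, had 29920.25 and 21968 in HCs against 1604 and 1287 in ENSCs, so that ENSCs held a clear residual signal. Of 15 supporting cell and non-sensory epithelium markers 3 were lower in HCs by the pooled rule, namely *Gata2* (14.5-fold), *Otoa* (4.95-fold) and *Sox9* (3.13-fold), and 9 overlapped. *Sox9* fell just short of 3-fold with the length and GC correction (pooled log2 ratio -1.54, from -1.65). *Gjb2*, the main cochlear connexin, had 4084 and 329 in HCs against 4725.5 and 382 in ENSCs, so that the organs differed more than the cell types. Both HC libraries held signal of genes typical of non-sensory cells, and the part of ENSCs carried along in the sort was not tested.

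The genes closest to the threshold show how thin it was. Just inside were *Meig1* (62.25 and 179 in HCs against 20.75 and 20 in ENSCs) and *Pdgfra* (482 and 163 in HCs against 54.25 and 47.75 in ENSCs), both at 3-fold, with *Meig1* resting on a tied signal and therefore at least 2.74-fold higher. Just outside were *Prkab2* (2.996-fold) and *Gm166* (2.990-fold). On the lower side *Ifit2* (21.75 and 25 in HCs against 75 and 117.5 in ENSCs) and *Ppib* (3.005-fold) were inside, *Ifit2* with both HC signals tied and therefore at least 2.46-fold lower, and *Dazap2* (2.997-fold) and *Mansc1* (2.984-fold) outside. With the length and GC correction *Pdgfra* (log2 1.57), *Ifit2* (log2 -1.55) and *Ppib* (log2 -0.76) all fell short.

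The protein-coding genes furthest towards HCs were taken from those with at least 200 in both HC libraries. *Nefl*, the light chain of neurofilaments (ENSMUSG00000022055, chromosome 14, 68701920 to 68707152 in mm9), led with 2381 and 2470 in HCs against 41 and 20 in ENSCs, a pooled ratio of 58.1-fold. *Apba1*, an adaptor protein of the presynaptic vesicle machinery, had 4483 and 9076 in HCs against 84.75 and 23.75 in ENSCs (52.9-fold). *Myo7a*, the motor protein that tensions the mechanotransduction apparatus and is mutated in Usher syndrome, had 1329.75 and 1756 in HCs against 27.5 and 20 in ENSCs (48.4-fold). In these genes both HC libraries lay far above both ENSC libraries, and the vestibular ENSC signal was at or near the floor. *Kncn*, which encodes the kinociliary protein kinocilin, followed at 47.4-fold and *Espnl*, a relative of the actin bundler espin, at 44.9-fold. *Scn3b*, a sodium channel beta subunit, had 926 and 1287 in HCs against 23 and 20 in ENSCs (40.2-fold). *Pou4f3*, the transcription factor required for HC survival, reached 39.8-fold, *Elmod1*, whose loss causes deafness in mice, 38.6-fold, and *Rasd2*, a small GTPase, 38.2-fold. Among the 12 were also 2 genes with provisional names, *1700003M02Rik* (40.5-fold) and *BC030476* (38.5-fold). Of the genes named here only *Apba1* differed between the HC libraries by more than 2-fold.

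The 12 protein-coding genes furthest towards ENSCs had at least 200 in both ENSC libraries. *Lmx1a*, a LIM homeodomain factor of the non-sensory ear (ENSMUSG00000026686, chromosome 1, 169619370 to 169778872), had 37 and 30 in HCs against 1611 and 2173 in ENSCs and was 43.5-fold lower in HCs. *Ogn*, a small proteoglycan, had 42.25 and 52.25 in HCs against 3231.5 and 2067 in ENSCs (39.6-fold). *Lect1*, which encodes chondromodulin, had 179.75 and 48.5 in HCs against 5935 and 6452.5 in ENSCs (33-fold). Both ENSC libraries exceeded both HC libraries by a wide margin in each. *Lrp2*, the endocytic receptor megalin, was 28.6-fold lower, *Mgst1*, a membrane-bound glutathione transferase, 21.7-fold, *Tns3*, a focal adhesion protein, 20.7-fold, *Cldn11*, a tight junction claudin, 20-fold, and *Fgfr2*, a receptor for fibroblast growth factors, 18.8-fold. For *Gucy2f*, *Sostdc1* and *Slit3* both HC signals were tied with the floor (24.25 and 29.75 in each), and the folds were at least 28-fold for the photoreceptor guanylate cyclase *Gucy2f*, at least 27.5-fold for *Sostdc1*, a secreted BMP and Wnt antagonist, and at least 25.6-fold for the guidance cue *Slit3*. The remaining gene, *1500015O10Rik*, was 21.7-fold lower.

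**Figure D2:**
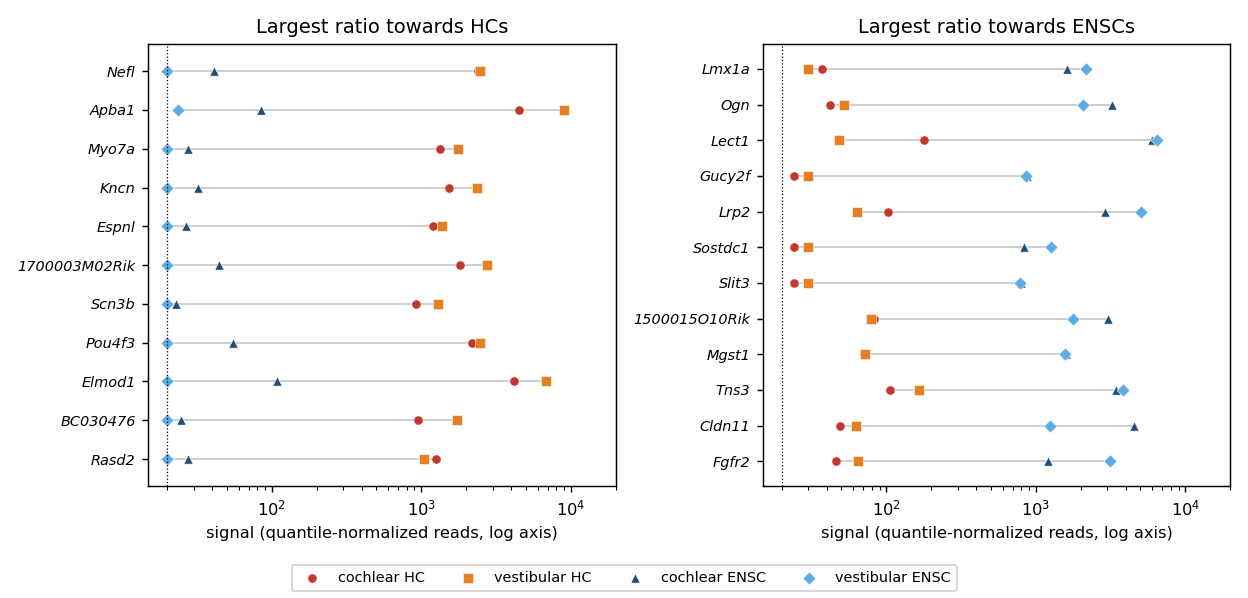
Signal (log axis) in each of the 4 libraries for 11 of the 12 protein-coding genes with the largest pooled ratio towards HCs (left) and for the 12 with the largest towards ENSCs (right); the dotted line is the floor of 20 and the grey bar spans the 4 values. For *Nefl* the HC points lie at 2381 and 2470 and the ENSC points at 41 and 20, and for *Lmx1a* the order is turned.

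Functional groups were then described through 22 gene lists, which held 79 of the 541 higher and 49 of the 422 lower genes. Counts are read against the shares of all genes, 4.22% higher and 3.29% lower. Lists of the hair bundle, the synapse and the efferent receptors had between 48.0% and 71.4% of their members in the higher set. Lists of the extracellular matrix, of epithelial junctions and of secreted factors had no member or 1 member there and up to 43.2% in the lower set.

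**Figure D3:**
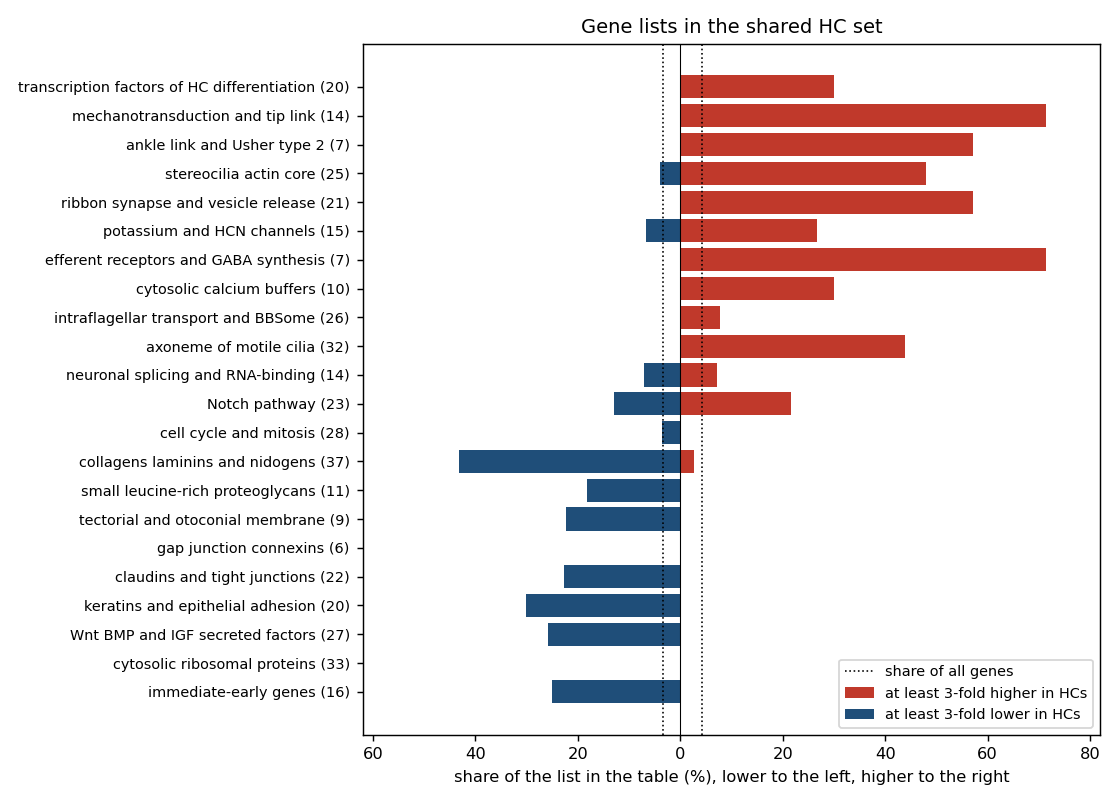
Share of the members of each gene list (number in the table in parentheses) that were at least 3-fold higher in both HC libraries (red, to the right) or at least 3-fold lower (blue, to the left), with dotted lines at 4.22% and 3.29%, the shares of all genes. Mechanotransduction and efferent receptor lists reach 71.4% higher, and collagens and laminins 43.2% lower.

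Of 20 transcription factors linked to HC differentiation 6 were higher and none was lower. Besides *Pou4f3* (2199 and 2489.5 in HCs against 55.25 and 20 in ENSCs) and *Atoh1* these were *Gfi1*, a repressor needed for HC survival, with 626 and 1219.75 in HCs against 22.5 and 20 in ENSCs (at least 27.5-fold), *Nhlh1*, a basic helix-loop-helix factor, with 1227.5 and 831 in HCs against 34.25 and 20 in ENSCs (24.3-fold), the homeobox genes *Barhl1* (at least 6.62-fold) and *Lhx3* (at least 3.48-fold). *Lhx3* fell short of 3-fold with values under 50 raised to 50 (pooled log2 ratio 0.66). In all 6 higher factors the vestibular ENSC signal was at the floor and the cochlear ENSC signal at most 55.25. *Isl1*, a LIM homeodomain factor, overlapped with 3682 and 2957 in HCs against 4976 and 339 in ENSCs. *Insm1* had 1379 and 29.75 in HCs against 22.75 and 20 in ENSCs, with the vestibular HC signal tied with the floor. In the other direction *Ikzf2* (2.38-fold) and *Zfhx3* (2.52-fold) were lower without reaching 3-fold. Of the RFX factors, *Rfx3* had 5240 and 7929.5 in HCs against 2668 and 1863 in ENSCs (1.96-fold), *Rfx1* was 1.95-fold and *Rfx7* 1.69-fold higher. *Rfx2* (20 and 51.5 in HCs against 20 and 22 in ENSCs) and *Rfx5* (144 and 56.75 in HCs against 88.75 and 67 in ENSCs) overlapped.

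Among 14 genes of mechanotransduction and the tip link 10 were higher. The channel subunits *Tmc1* (338.5 and 502 in HCs against 22.25 and 20 in ENSCs) and *Tmc2* (376.5 and 188 in HCs against 22.25 and 20 in ENSCs) were at least 14.9-fold and at least 8.25-fold higher, both with ENSC signals tied with the floor. Their partners *Lhfpl5* (at least 14.4-fold), *Tmie* (6.86-fold) and *Cib2* (9.48-fold) were also members, as was *Loxhd1* (37.9-fold), a stereocilia membrane protein. Both tip link cadherins kept signal above the floor in ENSCs. *Pcdh15* had 5618 and 8510.25 in HCs against 1208 and 417 in ENSCs (4.65-fold) and *Cdh23* 531 and 524 in HCs against 86.75 and 136.5 in ENSCs (3.84-fold). *Ush1c*, the scaffold harmonin, overlapped, with 240 and 642 in HCs against 81.25 and 472 in ENSCs, because vestibular ENSCs exceeded cochlear HCs. *Myo1c* was lower in HCs but not a member (22.5 and 26.5 in HCs against 36.25 and 159 in ENSCs), with both HC signals tied.

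The ankle link list held 7 genes, of which 4 were higher. *Ptprq*, a phosphatase of the shaft connectors, had 16851 and 23927 in HCs against 692 and 126.5 in ENSCs (24.3-fold), and *Clrn1* 1316.5 and 938 in HCs against 29.75 and 24.5 in ENSCs (31.5-fold). *Gpr98*, the large adhesion receptor of the ankle links, had 3285 and 1914 in HCs against 87.5 and 191.5 in ENSCs (9.99-fold), with more signal in vestibular than in cochlear ENSCs. *Whrn*, the scaffold whirlin, was 2.72-fold higher and *Pdzd7* 1.91-fold, both short of the threshold at signals of at most 121 in HCs, and *Vezt* overlapped.

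Of 25 genes of the stereocilia actin core 12 were higher and 1 was lower. The 12 include *Kncn*, whose product kinocilin belongs to the kinocilium and not to the actin core. The espins and the myosins that carry cargo to the tips were all on the higher side, with *Myo3b* at 31.1-fold, *Myo15* at 25.7-fold, *Myo3a* at 9.04-fold and *Espn*, whose ENSC signals were tied with the floor, at least 4.97-fold. *Xirp2*, an actin-binding repeat protein, had 2050.25 and 4976 in HCs against 75 and 20 in ENSCs (27.3-fold), and *Grxcr1* and *Grxcr2*, which shape the bundle, were at least 30-fold and at least 19-fold higher. *Strc*, which encodes the horizontal top connector protein stereocilin, had 325 and 217.5 in HCs against 22.25 and 20 in ENSCs (at least 9.56-fold). The plastins, which crosslink actin, split. *Pls3* was 8.04-fold lower in HCs (76.5 and 97.25 in HCs against 781.5 and 1013 in ENSCs), whereas *Pls1* was higher, by 1.15-fold only, with 5457 and 11148 in HCs against 4737 and 781.5 in ENSCs. General actin regulators such as *Cdc42* (1.54-fold lower), *Capzb* (1.1-fold lower) and *Rdx* (overlapping) were not members.

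**Figure D4:**
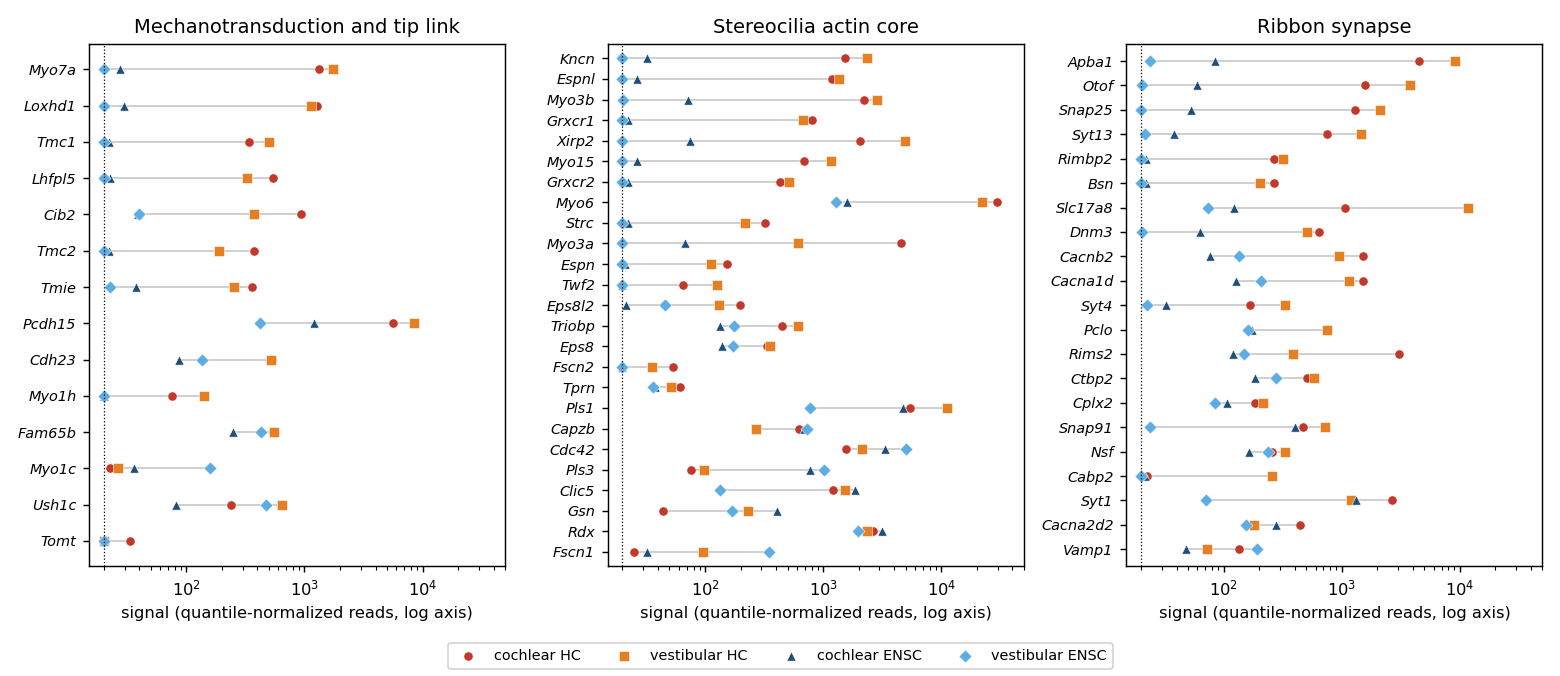
Signal (log axis) in each library for all listed genes of mechanotransduction and the tip link (left), the stereocilia actin core (middle) and the ribbon synapse (right), ordered by pooled ratio with overlapping genes last; the dotted line is the floor of 20. The gap between HC and ENSC points closes from top to bottom, and in *Pls3* the ENSC points (781.5 and 1013) lie to the right of the HC points (76.5 and 97.25).

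At the ribbon synapse 12 of 21 genes were higher and none was lower. *Otof*, the calcium sensor of vesicle fusion, had 1565.5 and 3806 in HCs against 59.25 and 20.25 in ENSCs (26.4-fold), and *Snap25*, a SNARE protein, 1291 and 2090.5 in HCs against 53.25 and 20 in ENSCs (24.2-fold). *Slc17a8*, the vesicular glutamate transporter of HCs, had 1058 and 11819.75 in HCs against 122.5 and 74.25 in ENSCs (8.64-fold), so that the shared call came with a large difference between the HC libraries. The presynaptic calcium channel genes *Cacna1d* (1522 and 1141.5 in HCs against 127 and 207 in ENSCs) and *Cacnb2* (1516 and 952.5 in HCs against 76.75 and 134 in ENSCs) were 5.52-fold and 7.12-fold higher. The active zone scaffolds *Bsn* (at least 8.99-fold), *Pclo* (4.29-fold) and *Rimbp2* (at least 11.8-fold) were members too, and so were *Syt13* (19.5-fold), *Syt4* (5.22-fold), *Dnm3* (8.02-fold) and *Apba1*. *Ctbp2*, whose transcripts include the ribbon protein ribeye and a widely expressed corepressor, was 1.79-fold higher, with 503 and 581 in HCs against 185 and 280.25 in ENSCs. *Rims2* reached 2.58-fold.

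Several of these genes are also used by neurons, whose fibres reach the sensory epithelia. The HC gate required CD326 beside the fluorescent protein, a step meant to leave out fluorescent neurons. Of the 7 neuron markers measured 3 were higher in HCs, *Nefl*, *Nefm* (1995 and 2121 in HCs against 76.75 and 20 in ENSCs, 26-fold) and *Snap25*. The other 4 overlapped: *Stmn2* had 30.75 and 22 in HCs against 81.5 and 20 in ENSCs, *Ntrk2* 21.5 and 102 in HCs against 112 and 92.5 in ENSCs, *Ntrk3* 20 and 61.25 in HCs against 25.75 and 22.5 in ENSCs and *Rbfox3* 58 and 20 in HCs against 20 and 20 in ENSCs. The summed signal of the 7 was 5797 and 6887 in HCs and 410.0 and 215 in ENSCs, and apart from the 3 higher genes no neuron marker exceeded 111.75 in any library. *Tubb3*, *Nefh*, *Prph*, *Gap43*, *Neurod1* and *Thy1* were not among the genes of the table. Glia markers moved the other way or overlapped: *Pmp22* (at least 10.1-fold), *Erbb3* (4.73-fold) and *Sox10* (4.43-fold) were lower in HCs.

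Of 15 potassium and HCN channel genes 4 were higher, among them *Kcnmb2*, an auxiliary subunit of the BK channel (1895 and 593 in HCs against 24.75 and 20 in ENSCs, 24-fold), *Kcna10* (at least 6.38-fold) and *Kcnn2*, the SK channel coupled to efferent input (at least 3.38-fold). The BK pore subunit *Kcnma1* had 40.25 and 485.5 in HCs against 22.25 and 39.75 in ENSCs, with little signal in cochlear HCs. *Kcne1*, a subunit of the potassium channel of endolymph-secreting cells, was at least 4.57-fold lower. Of 7 efferent receptor and GABA genes 5 were higher. The nicotinic subunits *Chrna9* (at least 3.32-fold) and *Chrna10* (at least 8.77-fold), which form the efferent receptor of HCs, were joined by the muscle-type subunit *Chrna1* (at least 10.3-fold). *Gad2*, which makes GABA, had 2596 and 212.5 in HCs against 26.75 and 20 in ENSCs (7.94-fold). All 5 had larger signals in cochlear than in vestibular HCs. With values under 50 raised to 50, *Kcna10* (pooled log2 ratio 1.54), *Kcnn2* (0.62), *Chrna9* (0.59) and *Kcne1* (-1.48) fell short of 3-fold. *Gad1* and *Chrnb4* were not members, with 145 and 419.5 in HCs against 239 and 29.25 in ENSCs and 174 and 26.5 in HCs against 21.25 and 20 in ENSCs.

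Of 10 cytosolic calcium buffers 3 were higher, among them *Calb2* (564 and 399 in HCs against 24 and 20 in ENSCs, 16.6-fold) and *Pvalb* (6.52-fold). *Calb1* was higher in both cochlear libraries (15030.5 and 126 in HCs against 4963 and 53 in ENSCs), and *Ocm*, which encodes oncomodulin, reached at least 2.54-fold with 57.75 and 534 in HCs against 22.25 and 20 in ENSCs.

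Cilium genes fell into unlike groups. Of 26 genes of intraflagellar transport and the BBSome, which move cargo along and into any cilium, 2 were at least 3-fold higher, *Bbs1* (659 and 582 in HCs against 82.75 and 53 in ENSCs, 7.03-fold) and *Bbs5* (4.15-fold). At any fold 18 of 26 were higher in both HC libraries, against 25.8% of all genes, and *Arl6* (2.86-fold) and *Ift80* (2.48-fold) came closest. Of 32 genes of the axoneme of motile cilia 14 (43.8%) were higher and none was lower. *Ccdc40* and *Ccdc39*, which set the axonemal repeat, had 334 and 935 in HCs against 22.5 and 20 in ENSCs (at least 14.7-fold) and 3054.5 and 5006 in HCs against 389 and 46.75 in ENSCs (7.85-fold). *Mlf1* had 3629 and 9696 in HCs against 289.5 and 74 in ENSCs (12.5-fold). *Armc4*, a docking factor of outer dynein arms (at least 11.9-fold), *Dnaic2*, a dynein intermediate chain (at least 8.63-fold), and the central pair genes *Spag6* (11.2-fold) and *Spag16* (6.07-fold) were members, as were *Rsph1* (at least 4.92-fold) and *Rsph4a* (3.66-fold) of the radial spokes.

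All 14 had a larger signal in vestibular than in cochlear HCs, by a median log2 difference of -1.53 (cochlear over vestibular), against -0.07 over all 541 higher genes, of which 52.9% were larger in vestibular HCs. In 6 of the 14 the difference was at least 3-fold. Of the 8 axonemal dynein heavy chains listed 1 was a member, 4 were higher in both HC libraries by less than 3-fold and 3 overlapped. *Dnahc6* was the member (157 and 1359 in HCs against 40 and 20 in ENSCs, 3.92-fold), whereas *Dnahc5* (88 and 5255 in HCs against 60.5 and 21.5 in ENSCs) and *Dnahc9* (53.75 and 1204 in HCs against 45.5 and 20 in ENSCs) were separated by 1.45-fold and 1.18-fold with cochlear HCs close to cochlear ENSCs. *Dnahc10* was at least 1.31-fold higher and *Dnahc2* had 25 and 121 in HCs against 20 and 20.25 in ENSCs, whereas *Dnahc11* (115.5 and 1548.5 in HCs against 26.75 and 428 in ENSCs), *Dnahc7b* (60 and 506 in HCs against 103 and 124 in ENSCs) and *Dnahc1* overlapped. *Foxj1*, a transcription factor of motile cilia, had 104.5 and 136 in HCs against 20.25 and 47.75 in ENSCs (2.19-fold). The summed signal of the 32 genes was 11943 and 38808.5 in HCs and 2006 and 1880.0 in ENSCs.

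**Figure D5:**
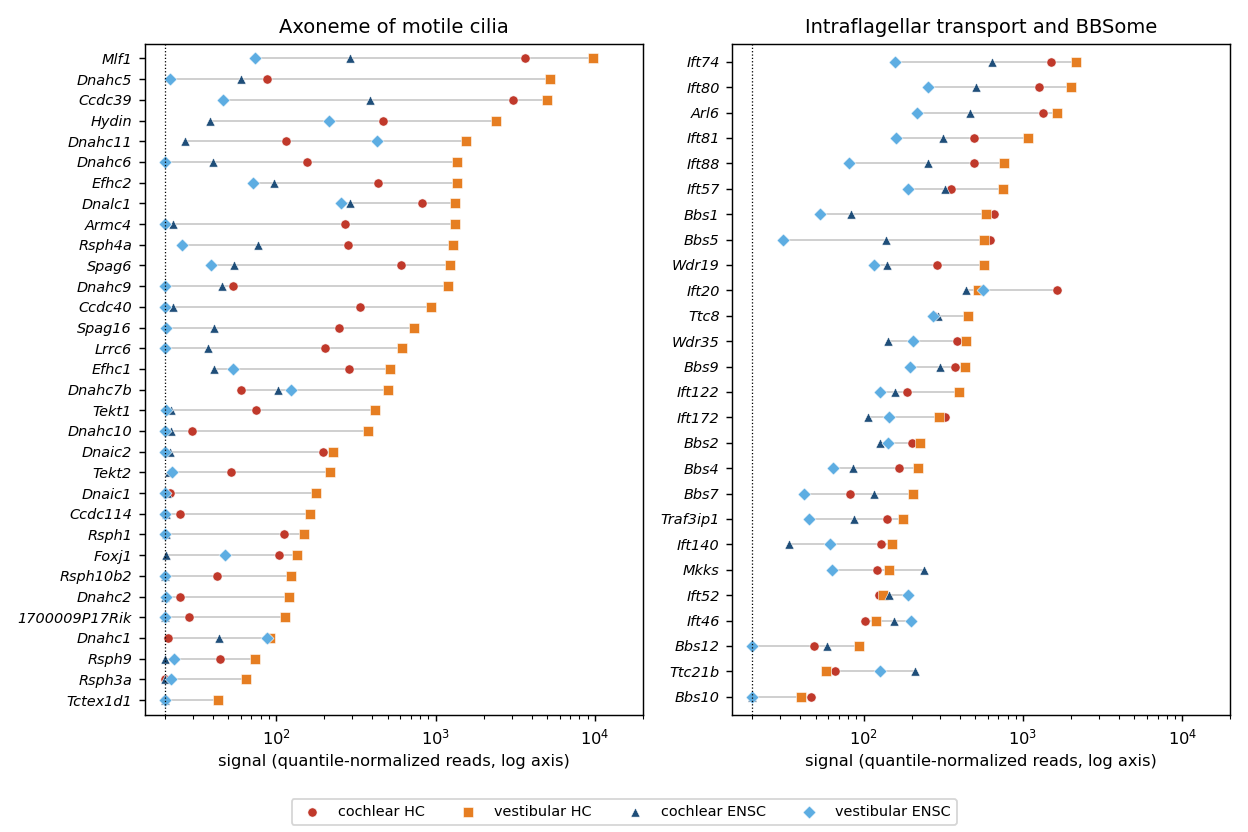
Signal (log axis) in each library for the listed genes of the axoneme of motile cilia (left) and of intraflagellar transport and the BBSome (right), ordered by the signal in vestibular HCs; the dotted line is the floor of 20. In the left panel the vestibular HC point is the rightmost one in every row, and in the right panel the 4 points lie closer together.

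RFX transcription factors bind the X-box, and the promoters of the members were searched for it. The X-box palindrome was taken as the half-site GTTGCC followed by AT and by the reverse complement of the half-site. It was searched on both strands with up to 2 mismatches in windows from 250 bases before to 50 after each annotated transcript start (mm9). Of 540 higher genes with a window 37 (6.85%) held it, against 289 of 12796 genes of the table (2.26%) and 3 of 422 lower genes (0.711%). The number of windows per gene was alike, with a mean of 3.83 in the higher and the lower genes and 3.96 in all. None of the 37 genes had the palindrome without a mismatch and 8 had it with 1 mismatch. Among higher genes with the larger ratio in the vestibular system 34 of 363 (9.37%) held it, and among those with the larger ratio in the cochlea 3 of 177 (1.69%). With tied signals raised as above, 34 and 3 of the genes with an X-box fell on these sides.

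The study's list of putative RFX targets, which was chosen in part on these libraries, covered 12 of the 37 genes. Among the 469 higher genes that are not on that list the share was 5.33%. A spaced form, which leaves positions 4, 7, 8 and 11 free to be any base and allows no other mismatch, gave 2.41% of the higher, 0.0% of the lower and 0.821% of all genes. The half-site GTTGCC alone was found in 33.1%, 27.7% and 25.2%, and the E-box CAGATG, which basic helix-loop-helix factors such as ATOH1 can bind, in 39.4%, 32.9% and 32.7%. A palindrome or spaced form can hold the half-site within it, so these counts overlap, and the E-box was counted apart from them.

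The 4 genes with the largest pooled ratio among the 37 are shown with their site in capitals, 5′ to 3′ on the strand of the gene, from the mm9 genome, since they carry the motif named above. *Miat*, a long non-coding RNA (chr5:112657976-112658055, minus strand), *Fank1* (chr7:140968512-140968558, plus strand), *Wdr52* (chr16:44394852-44394908, plus strand) and *Ppm1e* (chr11:87172694-87172773, minus strand) are shown in this order.
Miat: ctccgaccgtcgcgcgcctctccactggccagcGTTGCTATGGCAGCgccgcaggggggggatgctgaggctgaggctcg
Fank1: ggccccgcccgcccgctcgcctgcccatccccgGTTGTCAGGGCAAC
Wdr52: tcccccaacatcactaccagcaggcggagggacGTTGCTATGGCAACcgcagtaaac
Ppm1e: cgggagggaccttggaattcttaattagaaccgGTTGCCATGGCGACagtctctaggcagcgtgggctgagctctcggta

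Against the palindrome, counted from 1 at its 5′ end with the base of the palindrome first, *Miat* had C6T and A13G, *Fank1* C5T and T8G, *Wdr52* C6T and *Ppm1e* A12G. The site began 54 bases before the transcript start in *Miat*, 24 before it in *Wdr52*, 215 before it in *Ppm1e* and 1 base after it in *Fank1*. In 17 of the 37 genes it began within 60 bases before the start. The signals were 4753 and 2998 in HCs against 93.5 and 20 in ENSCs for *Miat* (32.1-fold), 478 and 551 in HCs against 22.5 and 20 in ENSCs for *Fank1* (at least 21-fold), 602 and 1368 in HCs against 37.25 and 20 in ENSCs for *Wdr52* (16.2-fold) and 1230.5 and 850 in HCs against 59.25 and 30 in ENSCs for *Ppm1e*, a protein phosphatase (14.3-fold). A match of letters is a description of the sequence and does not show binding.

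Regulators of splicing gave 1 member in each direction among 14 listed genes. *Srrm4*, which promotes neural microexons and is needed for hearing in mice, had 1358 and 1470.25 in HCs against 45.5 and 64.25 in ENSCs (21.1-fold). *Esrp1*, a splicing factor of epithelial cells, was 4.35-fold lower, with 200.5 and 226 in HCs against 983 and 1693 in ENSCs. *Elavl4* reached 2.68-fold and *Elavl2* 2.03-fold, *Ptbp2* overlapped, and *Ptbp1* had 704 and 1227 in HCs against 401 and 3080 in ENSCs.

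The Notch pathway, through which HCs hold neighbouring cells in the supporting fate, held members in both directions. Of 23 listed genes 5 were higher and 3 lower. The higher genes included the ligands *Jag2* (309 and 289 in HCs against 22 and 30 in ENSCs, 9.63-fold), *Dll1* (375 and 452.5 in HCs against 22.25 and 65.25 in ENSCs, 5.75-fold) and *Dll3* (at least 9.05-fold), together with *Mfng*, a glycosyltransferase that modifies Notch (at least 7.22-fold), and *Dlk2* (at least 4.07-fold). The lower genes were receptors. *Notch2* had 130 and 177 in HCs against 1493 and 2507 in ENSCs (8.44-fold), *Notch1* 108 and 87.5 in HCs against 352 and 1887 in ENSCs (3.26-fold) and *Notch3* 65.75 and 36.5 in HCs against 336 and 215 in ENSCs (3.27-fold). *Notch3* did not hold with the correction for length and GC content, under which its pooled log2 ratio went from -1.71 to -0.53. Of the other listed ligands, *Jag1* overlapped with 7815 and 1712.5 in HCs against 5297.5 and 761 in ENSCs, where HCs were higher within each organ, and *Dll4* was not a member with 76.75 and 32.5 in HCs against 20 and 20 in ENSCs. The target genes *Hes1* (285 and 308.5 in HCs against 685 and 185 in ENSCs) and *Hey2* overlapped, and *Hes5* had a signal above the floor in the cochlear libraries only, with 30.5 and 20 in HCs against 42.25 and 20 in ENSCs.

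Among the function lists, that of the extracellular matrix had the largest share of lower genes. Of 37 collagens, laminins, nidogens and related matrix genes 16 (43.2%) were lower and 1 was higher. *Fn1*, which encodes fibronectin, had 71 and 37.75 in HCs against 1164 and 2270 in ENSCs (16.4-fold), *Col4a5*, a basement membrane collagen, 172 and 80 in HCs against 2470 and 2385 in ENSCs (13.8-fold), and *Npnt*, an integrin ligand, 109 and 55.75 in HCs against 1147 and 1956 in ENSCs (10.5-fold). The cartilage-type collagens of the ear's extracellular membranes were lower but kept signal in HCs. *Col9a3* had 313.5 and 171 in HCs against 2793 and 6555 in ENSCs (8.91-fold), *Col2a1* 978 and 399.75 in HCs against 5439 and 22405 in ENSCs (5.56-fold) and *Col11a1* 1459.5 and 1556 in HCs against 20413 and 10955.5 in ENSCs (7.04-fold). The exception was *Tnc*, the matrix glycoprotein tenascin C, which was 13.4-fold higher in HCs with 11148 and 10905 in HCs against 661 and 816.5 in ENSCs. Of 11 small leucine-rich proteoglycans *Ogn* and *Prelp* (at least 5.1-fold) were lower. *Epyc*, with 764 and 210 in HCs against 62028.5 and 1119 in ENSCs, was separated by 1.47-fold because cochlear HCs were close to vestibular ENSCs.

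Of 9 genes of the tectorial and otoconial membranes 2 were lower, *Oc90*, the main protein of otoconia (463 and 644 in HCs against 5342 and 37324 in ENSCs, 8.29-fold), and *Otoa*, which anchors the tectorial membrane (61.5 and 218 in HCs against 1081 and 2121 in ENSCs). *Tecta* (4249 and 535 in HCs against 11861 and 4649 in ENSCs) and *Tectb* (1195.5 and 2435.5 in HCs against 7994.5 and 1507 in ENSCs) were not members. None of 6 connexins was. Of 22 claudins and other tight junction genes 5 were lower, with *Cldn11* (49.25 and 62.25 in HCs against 4500.25 and 1245 in ENSCs) and *Cldn8* (57.75 and 181 in HCs against 1575 and 7994.5 in ENSCs, 8.69-fold) first and *Cldn4* (5.32-fold), *Cldn7* (4.78-fold) and *Cldn6* (4.15-fold) after them. The scaffold *Tjp1* had 2258 and 2251 in HCs against 2433 and 2926.5 in ENSCs, and the tricellular junction gene *Marveld2*, with 456 and 266 in HCs against 298.5 and 323 in ENSCs, overlapped.

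Of 20 keratins and epithelial adhesion genes 6 were lower, namely *Cdh3* (4.7-fold), *Itgb1* (669 and 664 in HCs against 2817 and 3812 in ENSCs, 4.21-fold), *Krt19* (at least 3.89-fold), *Dsp* (3.77-fold), *Itgb4* (at least 3.54-fold) and *Krt18* (3.37-fold). *Epcam*, which encodes the CD326 used in the sort, had 1017 and 1139 in HCs against 3376 and 7511 in ENSCs, 2.96-fold lower in HCs and just short of the threshold. *Cdh2*, the N-cadherin gene, was 2.24-fold higher, with 1538 and 1313.5 in HCs against 510 and 586 in ENSCs. Of 27 secreted factors of the Wnt, BMP, IGF and Slit families 7 were lower and none higher, among them *Igf1* (748 and 165.5 in HCs against 21968 and 4917 in ENSCs, 6.58-fold), *Slit2* (8.13-fold), *Sfrp1* (1776 and 991 in HCs against 8422 and 7107 in ENSCs, 4-fold), *Ntn1* (at least 4.11-fold), *Igf2* (3.81-fold) and *Wnt7b* (3.58-fold). With the length and GC correction *Igf2*, *Wnt7b* and *Krt18* fell short of 3-fold, with pooled log2 ratios of -1.07, -1.06 and -1.47.

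Markers of other cell types of the inner ear were examined beside the matrix genes. Of the 9 mesenchyme markers measured 3 were lower in HCs, *Postn* (at least 13.6-fold), *Col1a2* (46.25 and 54 in HCs against 1618 and 443 in ENSCs, 8.21-fold) and *Vim* (7.08-fold), and the summed signal of the 9 was 1492.5 and 513 in HCs and 22347 and 5671.5 in ENSCs. The early mesenchyme factors *Prrx1* and *Tbx18* were at or near the floor (at most 54.75 in any library), and *Twist1*, *Twist2* and *Pou3f4* were not among the genes of the table. Of the vessel markers, *Kdr* had 24.25 and 29.75 in HCs against 29 and 1462 in ENSCs and *Flt1* 22 and 25 in HCs against 130 and 20 in ENSCs. *Mitf*, a melanocyte marker, was 3.38-fold lower in HCs, and *Cd68*, a macrophage marker, had at most 24.75. ENSCs were gated as CD326-positive, and the sort set CD326-negative cells apart. The part of other cells in the matrix genes above was not tested.

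Among 28 cell cycle genes 1 was a member (3.57%, against 3.29% of all genes), *Ccnd2* (71 and 184 in HCs against 610.25 and 1998 in ENSCs, 3.31-fold lower). At any fold 4 were higher in both HC libraries, 9 were lower and 15 overlapped. Of all 12814 genes 25.8% were higher in this way, 25.8% were lower and 6200 overlapped, so the lower and overlapping counts were not far from these shares. The 4 higher genes were *Nusap1* (61.75 and 128.5 in HCs against 26.5 and 33.25 in ENSCs, 1.86-fold), *Mcm6* (1.63-fold), *Cenpf* (1.39-fold) and *Pcna* (1.3-fold). Beside *Ccnd2*, those furthest on the lower side were *Top2a* (50.25 and 40.25 in HCs against 90.75 and 247 in ENSCs, 1.81-fold), *Mcm4* (1.67-fold) and *Ccnd1* (1.54-fold). *Mki67* had 23.5 and 28.75 in HCs against 29 and 414 in ENSCs, with most signal in vestibular ENSCs. None of 33 cytosolic ribosomal protein genes passed 3-fold. Without a threshold 15 were lower in both HC libraries and 2 higher, against 25.8% of all genes in each direction, and 16 overlapped. *Rplp1* came closest to 3-fold (2.73-fold lower). Of 16 immediate-early genes 4 (25%, against 3.29% of all genes) were lower, *Zfp36* (464.5 and 576 in HCs against 3039.75 and 8625 in ENSCs, 5.28-fold), *Ier3* (at least 5.12-fold), *Fosl2* (3.62-fold) and *Jun* (1640 and 1906 in HCs against 5919 and 6518 in ENSCs, 3.11-fold), and 14 of 16 were lower in both HC libraries at any fold, against 25.8% of all genes. The call of *Jun* was lost with the correction for length and GC content (pooled log2 ratio -0.75, from -1.63). *Fos* had 1295.5 and 4995 in HCs against 6104.5 and 14506 in ENSCs and *Egr1* 6745.5 and 7269 in HCs against 13898.5 and 16851 in ENSCs. Immediate-early genes also respond to tissue dissociation, and a part of the sort in these values was not tested.

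Of the 541 higher genes 507 (93.7%) were protein coding, against 92.2% of all genes, and 18 were lincRNA or antisense genes (3.33%, against 1.81%). Of the 422 lower genes 417 (98.8%) were protein coding and 3 were lincRNA or antisense genes (0.711%). Another 11 higher genes, *Miat* among them, had no biotype in the table. Among genes with a non-coding biotype and at least 200 in both HC libraries, those furthest towards HCs were *A130066N16Rik*, *Gm20554* and *A130049A11Rik*. *A130066N16Rik* (chromosome 9, 34725818 to 34737094, minus strand) lies inside *Kirrel3*, a cell adhesion gene on the plus strand. It had 738 and 922.5 in HCs against 31.25 and 20.25 in ENSCs (23.6-fold), whereas *Kirrel3* itself was 5.15-fold lower with 124 and 42.75 in HCs against 637.5 and 1492 in ENSCs. *Gm20554* had 620.5 and 747.5 in HCs against 40 and 20.75 in ENSCs (15.5-fold). *A130049A11Rik* was at least 13.1-fold higher and overlaps 2 genes on the other strand that were higher in HCs as well, *Rsbn1* (2683 and 2104 in HCs against 1007 and 631 in ENSCs) and *Phtf1* (1728 and 1608 in HCs against 516 and 555.5 in ENSCs). Whether the counting used strand is not stated, so reads of an antisense gene and its partner may be mixed. Among those with at least 200 in both ENSC libraries *H19*, an imprinted RNA, had 115.5 and 30.5 in HCs against 6677 and 1504 in ENSCs (13-fold). *BC006965*, which lies next to *Sox9*, was 2.77-fold lower and *Cd63-ps* 2.75-fold, both under the threshold. The other lower members with a non-coding biotype were under that limit.

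Exonic length and GC content were not used by the rule. The median exonic length was 4299.5 bases in the higher, 4375.5 in the lower and 3819 in all genes, and the median GC content 48.3%, 50.3% and 48.8%.

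Lists given by the study were set against the shared genes. Its microarray list of HC markers held 240 annotated and predicted genes, of which 164 were matched here by gene ID or, failing that, by symbol. Of these 164, 113 (68.9%) were higher and none was lower, against 4.22% of all genes. The 3 with the least HC excess were *Gca* (654 and 543.5 in HCs against 653 and 704 in ENSCs), *Wfdc12* (20 and 20 in HCs against 20 and 23.5 in ENSCs) and *Smtn* (77.75 and 20.75 in HCs against 24.25 and 48.5 in ENSCs). Of 36 array markers of non-sensory cells 32 were matched. Of these 16 (50%) were lower and 1 (3.12%) was higher, against 3.29% and 4.22% of all genes. The higher gene, *Miat*, is on the array list of HC markers as well. Of 225 putative RFX targets 71 (31.6%) were higher and none lower, a list that is no independent evidence because these libraries helped to choose it.

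Human deafness genes had 64 mouse orthologues in the table. Of these 21 (32.8%) were higher in HCs of both organs, against 4.22% of all genes, and 4 (6.25%) lower, against 3.29%. The higher genes were mostly those of the bundle and synapse described above. Among the others were *Dfnb59*, which encodes pejvakin (607 and 512 in HCs against 22.5 and 20 in ENSCs, at least 22.5-fold), and *Msrb3*, a methionine sulfoxide reductase (2071 and 1229.75 in HCs against 75 and 225 in ENSCs, 5.47-fold). The 4 lower genes were *Slc26a4*, the anion exchanger pendrin (23.5 and 35.25 in HCs against 282 and 226 in ENSCs, 6.4-fold), *Otoa*, *Col11a2* (4.63-fold) and *Grhl2*, an epithelial transcription factor (97 and 111 in HCs against 454 and 651 in ENSCs, 4.09-fold).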

How the data were processed

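RNA of 4 sorted populations of the newborn mouse inner ear, 1 library each, was amplified with a NuGEN Ovation kit and sequenced. The labels name poly(A) RNA, and the study's methods name total RNA as the input. According to the study's methods and the submitters' processing notes, the first 50 bases of each read were aligned to mm9 with TopHat and counted per ENSEMBL gene with HTSeq; versions, the annotation release and the strand setting are not given in the sources used here. The deposited values are a signal: counts that the authors quantile-normalized and raised to a floor of 20. The study's design speaks of triplicates, and whether these were pooled into the columns is not stated. Quantile normalization gives each library the same distribution, so that depth, and with it counting intervals, cannot be recovered.

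The pooled ratio was computed without a pseudocount and counted at 3-fold, with no test, since a test would have treated the organs as replicates. Members and lists were chosen with earlier results of these data known. Genes were named by rule: the 12 protein-coding genes with the largest ratio in each direction (at least 200 in both libraries of the higher population), all members of a list of up to 8 genes or the 4 with the largest ratio in each direction, the 2 genes on each side of the threshold, the 3 leading non-coding genes, the 3 array HC markers least higher, and up to 4 genes with an X-box. Other genes were named after their values were seen. Some genes that the rule names are not reported here. Coordinates and promoter windows came from the GENCODE annotation of NCBIM37 (mm9), which held 12799 of the 12814 genes. Scripts used Python 3.11.15, numpy 2.4.6, pandas 2.3.3, scipy 1.17.1, statsmodels 0.14.6 and matplotlib 3.10.9, and the rule was tested on simulated data. Alternatives were other floors, pseudocounts, filters, scalings, thresholds, ways to join the organs and forms of the motif.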

Additional observations from a re-analysis of the deposited data

How the results depend on the processing

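No gene of either set was called in the opposite direction under any alternative run, and none of the 172 members named in the text reversed. The other genes among the 255 named in the text were not checked for a reversal. Raised floors and ties, pseudocounts, filters, other thresholds and other ways to join the organs cannot reverse a member, so for them this outcome was fixed. The 541 higher and 422 lower genes became 263 and 215 with values under 100 raised to 100, 211 and 132 with a pseudocount of 100, 1125 and 1195 by the ratio of geometric means, 989 and 934 at a threshold of 2, 319 and 158 at a threshold of 5, 1075 and 1179 in the cochlea alone, and 1762 and 1837 in the vestibular system alone. Higher genes made up 66.9% of the members at the threshold of 5, against 56.2% at 3. The remaining alternatives gave 401 to 640 higher and 286 to 597 lower genes. The members of function lists fell from 79 to 47 (higher) with values under 100 raised to 100, and to 45 (higher) and 27 (lower, from 49) with a pseudocount of 100. The share of higher genes with an X-box was 6.85% with the palindrome and 2.41% with the spaced form. Of 172 members named in the text, 64 fell under 3-fold in 1 or more alternatives, 11 of them apart from raised floors and pseudocounts. The length and GC correction did this in 10, with pooled log2 ratios of -0.53 in *Notch3*, -0.75 in *Jun*, -0.76 in *Ppib*, -1.06 in *Wnt7b*, -1.07 in *Igf2*, -1.34 in *Id3*, -1.47 in *Krt18*, -1.54 in *Sox9*, -1.55 in *Ifit2* and 1.57 in *Pdgfra*, and raised ties did it in *Meig1* and *Ifit2*. Centring the libraries on the median gave 615 higher and 356 lower genes. It too took *Jun* (-1.54), *Sox9* (-1.53), *Ppib* (-1.49) and *Ifit2* (-1.49) under 3-fold. Raising values under 50 to 50 ended 15 calls, those of *Kcna10*, *Kcnn2*, *Kcne1*, *Chrna9*, *Meig1*, *Ifit2*, *Krt19* (-1.25), *Ntn1* (-1.33), *Dlk2* (0.89), *Espn* (1.18), *Itgb4* (-1.11), *Lhx3* (0.66), *Otx2* (-1.27), *Rsph1* (1.16) and *Runx1* (-1). The cause of these changes was not tested beyond what each alternative does by construction. Paired by organ, with 3-fold required in each of them, the counts were 640 and 597. The labels give no replicate numbers to pair by. No difference could be set against the spread between replicates, and small signals near the floor limit what can be seen of genes low in both populations.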

Other observations

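The genes below are single members of the shared set, chosen after their values were seen, and stand for no group. *Scg3*, which sorts granule proteins, had 893.5 and 609.5 in HCs against 22.5 and 20 in ENSCs (at least 26.8-fold), and *Chgb*, a granin, 827 and 983 in HCs against 46.5 and 20 in ENSCs (17.8-fold). *Cpe*, a peptide-processing carboxypeptidase, and *Scg5* were 8.9-fold and 5.84-fold higher. *Bdnf*, a neurotrophin for vestibular and cochlear neurons, had 1861 and 2623 in HCs against 110.25 and 47.75 in ENSCs (16.9-fold). The myosin gene *Myo16* was at least 11.2-fold higher and *Myo5c* at least 12.8-fold lower. The synaptotagmin genes *Syt2* (14.9-fold), *Syt14* (12.5-fold) and *Syt7* (5.82-fold) were higher.

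*Myt1* had 364 and 383 in HCs against 22.25 and 20 in ENSCs (at least 16-fold), *Runx1t1* 1366 and 839.5 in HCs against 65.5 and 22 in ENSCs (12.8-fold) and *Casz1* 3042 and 1033.5 in HCs against 67 and 117 in ENSCs (8.83-fold). On the lower side *Bhlhe41* (6.05-fold), *Otx2* (at least 3.94-fold) and *Runx1* (at least 3.28-fold) were joined by *Id3* (246 and 83.25 in HCs against 1081 and 1068 in ENSCs, 4.34-fold) and *Id1* (3.75-fold), which encode inhibitors of basic helix-loop-helix factors. *Id3* fell short of 3-fold with the length and GC correction (pooled log2 ratio -1.34). *Mmp2*, a matrix metalloproteinase, was 11.3-fold lower, *Emp1* 17.8-fold and *Sparc* 4.83-fold. Provisional symbols were held by 73 of the higher genes (13.5%) and 13 of the lower genes (3.08%), against 12.5% of all genes.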
